A study of Brassica oleracea with 12 samples.

Results

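Photosynthetic electron transport genes were followed across the leaf stages and the leaf sectors of a variegated ornamental kale. The 37 genes are the rows, of 45325 in the expression table, whose KEGG annotation listed the pathway Photosynthesis. By their KEGG orthology numbers, 18 rows encode 9 subunits or assembly proteins of photosystem II, 11 encode 7 subunits of photosystem I, 1 encodes a subunit of the cytochrome b6f complex and 7 encode mobile electron carriers or ferredoxin-NADP reductase. No row of the pathway encoded a subunit of the chloroplast ATP synthase, and no plastid-encoded subunit was among the 37. Of the 37, 24 carried no gene description of their own, so that their subunit name rests on the orthology number alone.

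In the thylakoid membrane, photosystem II uses light to take electrons from water, which releases oxygen. The electrons pass through plastoquinone to cytochrome b6f, from there by plastocyanin to photosystem I, and after another light-driven step by ferredoxin to ferredoxin-NADP reductase (FNR), which forms NADPH, while the proton gradient built on the way drives the ATP synthase. The core proteins that carry the pigments and cofactors are mostly encoded in the plastid genome, whereas the nuclear genome encodes many small, outer and lumen-side subunits, which are imported into the chloroplast.

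The plant was line ‘JC007-2B’ of Brassica oleracea L. var. acephala, an ornamental kale whose inner leaves get a white center and keep a green margin. All 4 groups came from this line, with 3 RNA-seq libraries each, and the labels name no treatment or transgene. S1 was entirely green leaf and S2 was leaf with white appearing in its center inside a green margin. Both were taken without veins, and an S2 library thus mixed green and whitening tissue. The study names S2 the albino stage, where chlorophyll content was lowest and only a small green part was left. It states that whitening follows a period of low temperature, so that stage and temperature cannot be told apart here. S3_S was the green margin and S3_C the white center of leaves with the full pattern, and the labels do not say whether veins were taken out of these. The study names its S3 libraries independent biological replicates, and for S1 and S2 the labels give only separate samples, so that p-values there measure the spread between these samples. As RNA came from bulk tissue, fewer green cells and less RNA per cell cannot be told apart.

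Expression was given as FPKM, fragments per kilobase of transcript scaled to the sequenced fragments. FPKM sums were 429278 to 461587 per library, between 33912 and 36992 rows were above 0, and the relative depth read from the smallest steps of low values was 0.902 to 1.35 with S1_1 as 1. In 7 of the 37 rows the assembled gene spans several reference genes, and most subunits had several gene copies, between which reads that align to more than 1 place may have been split. A pair of libraries stood apart from their groups in these genes: of the 33 members averaging 1 FPKM or more, S1_1 was the highest S1 library in 28 with a median ratio of 2.28 to the mean of the other S1 libraries, and S2_3 was the highest S2 library in 29 with a median ratio of 2.31. In the S3 groups these median ratios lay between 0.847 and 1.16.

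The 4 highest members on average were the PsbP gene Bo8g007190, the Rieske protein gene Bo9g006480, the PsaO gene Bo8g112500 and the PsaE gene Bo8g054500, with means of 372, 353, 345 and 258 FPKM over the 12 libraries. At the other end, 4 members had a mean under 1 FPKM, among them the only rows of the KEGG list for plastocyanin and ferredoxin. The levels of all members in all libraries are shown in the plot of members by library, where the green margin lies to the right of the white center in most rows.

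**Figure D1:**
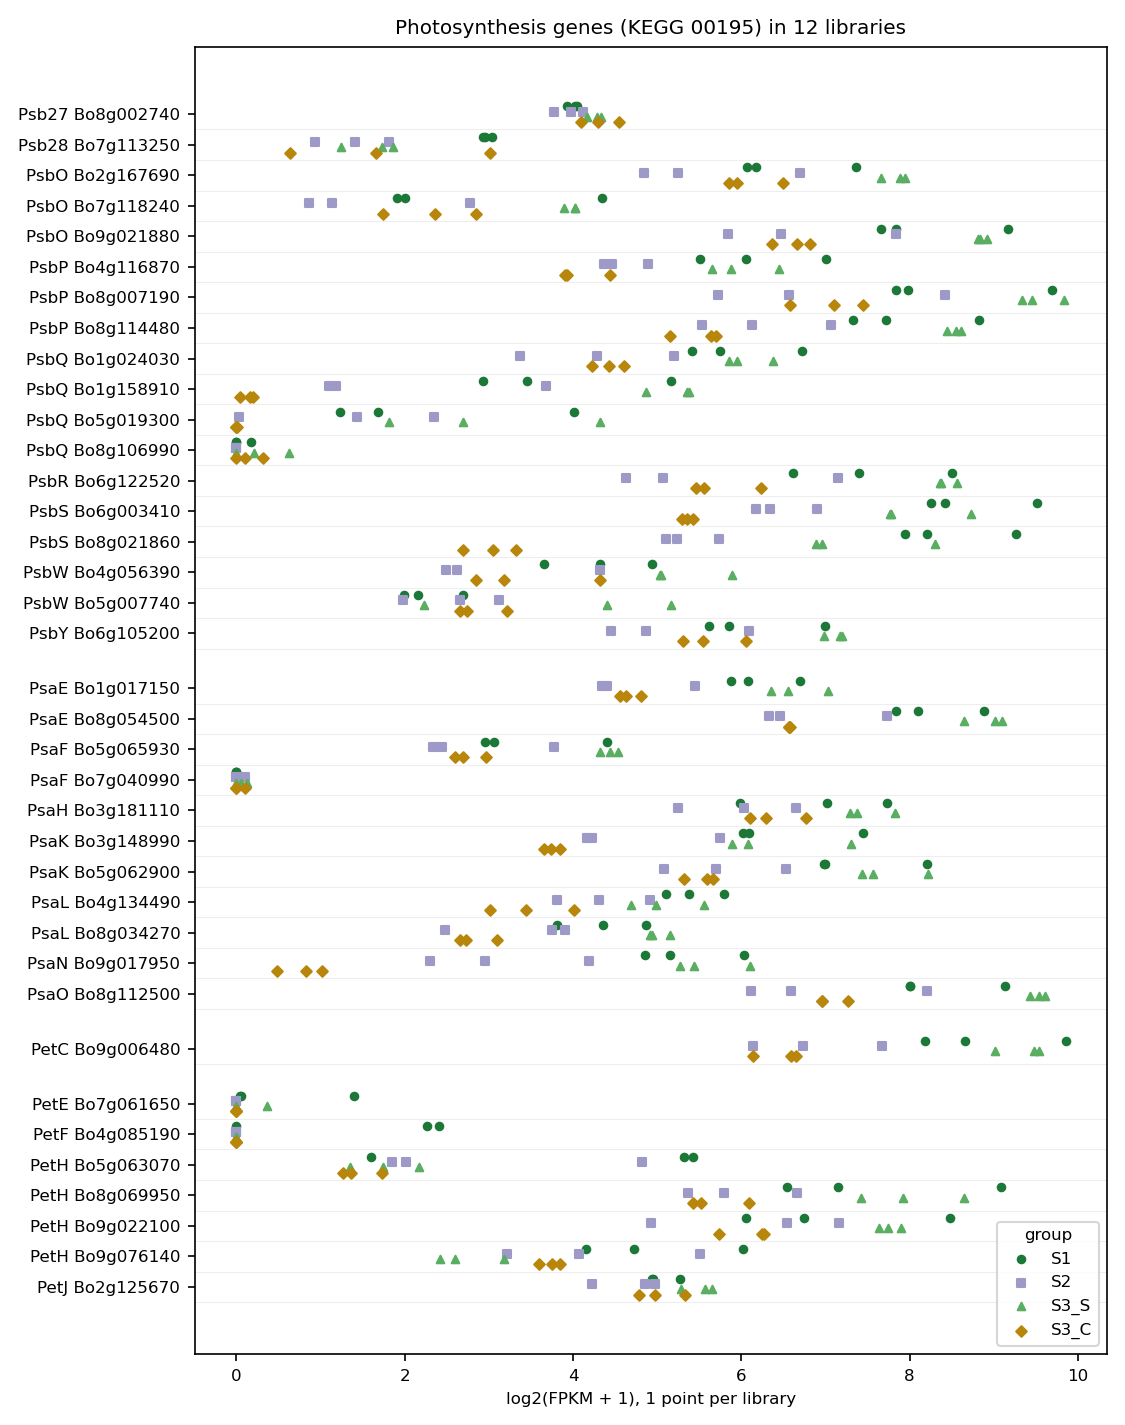
Level of each of the 37 members in each library on the log2(FPKM + 1) scale, ordered by role (photosystem II, photosystem I, cytochrome b6f, carriers and FNR), with 1 point per library and group shown by colour and shape. In 27 rows all S3_S points lie to the right of all S3_C points, and in the root-type FNR Bo9g076140 they lie to the left.

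Summed over the 37 members, expression was 8105, 2949.9 and 3544 FPKM in the S1 libraries, 1169, 951 and 2658 in S2, 6919.7, 5409 and 6257 in S3_S and 1293, 1082 and 1377 in S3_C. The green margin thus carried 4.95 times the summed level of the white center, and the groups did not overlap (p = 0.1 in an exact two-sided permutation test, which with 3 libraries a group can go no lower). The S2 mean was 0.327 of the S1 mean (exact permutation p = 0.1), although the highest S2 library, at 2658, came within reach of the lowest S1 library. The margin and S1 overlapped, with a ratio of 1.27 (exact permutation p = 0.4).

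By complex, the sums of the members moved in the same order of groups but not by the same factor. The PsbQ row PSBQ, the PsbO row PSBO2 and the PsaN row PSAN are no members and are left out of these sums. Their S3_S means were 1874, 465.5 and 413 FPKM and their S3_C means 393, 154 and 61.8. The photosystem ratios given here are of the members alone. With the means of these rows added, photosystem I would have the higher ratio, so that their order depends on the rows included. Photosystem II summed to 3324, 2728 and 3072 FPKM in S3_S and to 570.5, 472 and 695 in S3_C, a ratio of 5.25. Photosystem I summed to 2213, 1748 and 1908 and to 431, 404 and 417, a ratio of 4.69, and the carriers and FNR to 669, 417 and 533 and to 195.6, 136 and 165, a ratio of 3.26. In each of these the S3 groups did not overlap (exact permutation p = 0.1 for each). The ratio of the photosystem II sum to the photosystem I sum within a library was 1.5, 1.56 and 1.61 in S3_S and 1.32, 1.17 and 1.67 in S3_C, and these values overlapped (exact permutation p = 0.4).

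**Figure D2:**
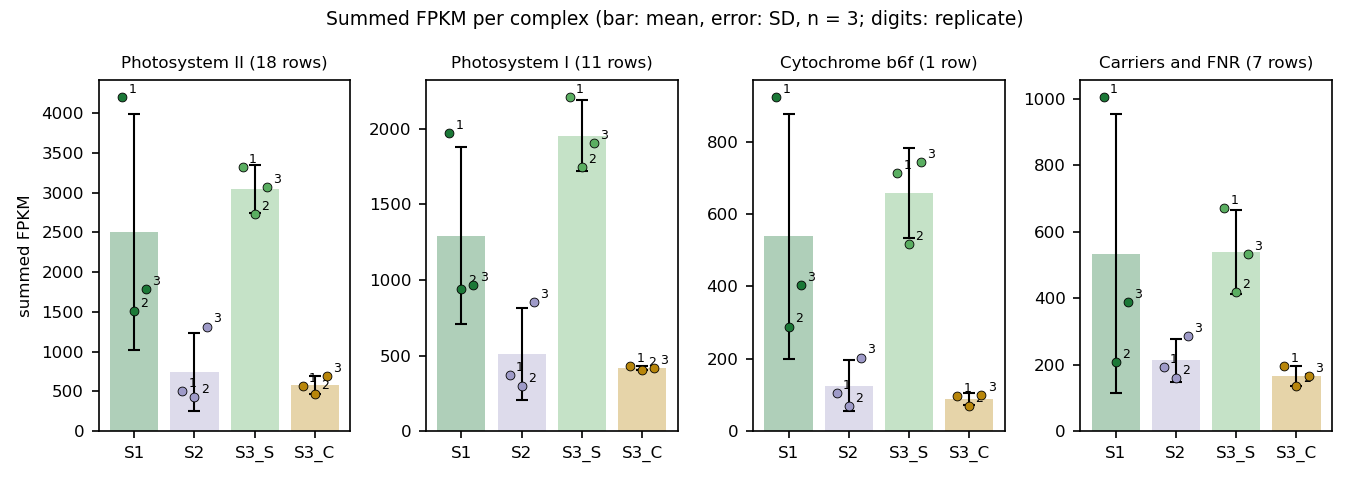
Summed FPKM of the members of each complex in each library (points, with the replicate number), with the group mean as a bar and the SD over 3 libraries as the error. The S3_S libraries of photosystem II lie between 2728 and 3324 and the S3_C libraries between 472 and 695, while S1 spreads from 1511 to 4205.

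The comparison of the green margin with the white center asks which of these genes differ between sectors at 1 stage. In 27 of the 36 members that could be tested, expression was higher in S3_S than in S3_C, and in 0 it was lower. A member was called when limma's unadjusted p was under 0.05 and the log2 fold change on log2(FPKM + 1) was over 1 in size, a threshold that 2.67% of all genes tested passed as higher in the margin and 5.2% as lower (4.23% and 2.18% after median-of-ratios scaling, which left 27 members higher). After Benjamini-Hochberg adjustment over all genes, 23 members were higher with an adjusted p under 0.05 (limma), against 1.41% of all genes, and 0 were lower, against 2.34%. The median log2 fold change of the members was 1.89, whereas that of all genes tested was −0.14. By role, 14 of 18 photosystem II rows, 10 of 11 photosystem I rows, the Rieske gene and 2 of 6 carrier and FNR rows were called. Every called member had all margin libraries above all center libraries, which 6.35% of all genes did.

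The number of called members rested on no single library, as it was 26 to 28 when each library was left out in turn. The number with an adjusted p under 0.05 did depend on them, as limma gave 0 without S3_C_1, 2 without S3_C_2, 4 without S3_S_2 and 1 without S3_S_3. Over all genes tested, 1598 had such an adjusted p with every library kept, and 2, 17, 99 and 10 had it in these fits. With a linear model per gene that holds a library-size covariate, the form used by Ballgown, which the study names, 6 members were called higher and 0 lower, where 1.4% and 1.02% of all genes were, and 0 had an adjusted p under 0.05. The 6 were the PsbQ gene Bo1g158910, the PsaN gene Bo9g017950, the PsbP gene Bo8g114480, the PsaO gene Bo8g112500, the PsbO gene Bo9g021880 and the PsaE gene Bo8g054500, with log2 fold changes of 3.84, 3.59, 2.59, 2.15, 1.98 and 1.47. This covariate, the sum of log2(FPKM + 1) over the rows above 0 and under the upper quartile, was 34755 to 36657 in S3_S and 39766 to 40745 in S3_C, so that it and the sector cannot be told apart.

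In the oxygen-evolving complex, the outer proteins PsbO, PsbP and PsbQ shield the manganese cluster that splits water on the lumen side of photosystem II. The highest PsbP gene, Bo8g007190, was at 699, 646 and 912 FPKM in S3_S and at 137, 94.9 and 173 in S3_C (log2 fold change 2.5, 95% interval 1.55 to 3.45, adjusted p = 0.0352). A further PsbP gene, Bo8g114480, was at 390.0, 347 and 375 FPKM and at 49.1, 34.5 and 50.9 (log2 fold change 3.04, 95% interval 2.48 to 3.59, adjusted p = 0.0135). The lowest margin library of Bo8g114480 was thus far above the highest center library, and its margin-center difference was the greatest of the PsbP genes. The third PsbP row, Bo4g116870, is named PPL1, a PsbP-like protein that in Arabidopsis acts in the repair of photosystem II, and was higher in the margin by 1.9 on the log2 scale, with 49.3 to 86.6 against 14 to 20.8 FPKM.

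All 3 PsbO members were higher in the margin. The most abundant of them, Bo9g021880, was at 485, 457 and 448 FPKM in S3_S and at 99.9, 81.1 and 112 in S3_C (log2 fold change 2.25, 95% interval 1.61 to 2.88, adjusted p = 0.0234). For Bo2g167690 the log2 fold change was 1.73 and for the weakly expressed Bo7g118240, at 13.8 to 15.3 against 2.34 to 6.18 FPKM, it was 1.67. PSBO2, a PsbO row outside the KEGG list, was at 451, 406 and 539 FPKM in S3_S and at 149.5, 142 and 169.8 in S3_C (log2 fold change 1.59, adjusted p = 0.0482, limma). PsbR, a small protein known to help the outer proteins attach, was at 329.8, 329 and 379 FPKM in S3_S and at 46, 43.2 and 74.3 in S3_C (log2 fold change 2.68, 95% interval 2.02 to 3.35, adjusted p = 0.0203). The margin libraries of PsbR lay close together, and no center library came near them.

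Copies of PsbQ differed in the size of their margin-center difference. The greatest difference of all members was in Bo1g158910, which was at 40.1, 28.1 and 40.6 FPKM in S3_S and at 0.0337, 0.117 and 0.145 in S3_C (log2 fold change 5.07, 95% interval 4.57 to 5.56, adjusted p = 0.00412). The center was close to 0 in each library for this copy, and the fold change then depends on the pseudocount, being 7.54 with a pseudocount of 0.1. Another copy, Bo1g024030, a row that also spans a second reference gene, kept 23.3, 17.7 and 20.4 FPKM in the center beside 82.1, 61 and 56.6 in the margin, a log2 fold change of 1.64. The row of Bo5g019300, which spans 3 reference genes, was at 19.1, 2.52 and 5.46 FPKM in the margin and at 0, 0.00544 and 0 in the center, with an adjusted p of 0.0611 (limma), and its log2 fold change of 2.94 became −0.51 with the library-size covariate. The last copy, Bo8g106990, was at most 0.545 FPKM in any library.

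PsbS senses the acid pH of the lumen and switches on the release of excess light energy as heat. Of its genes, Bo6g003410 was at 422, 216 and 219 FPKM in S3_S and at 39.9, 42.2 and 38.3 in S3_C (log2 fold change 2.73, 95% interval 1.98 to 3.47, adjusted p = 0.023). The other gene, Bo8g021860, was at 315, 123 and 118 FPKM in S3_S and at 8.99, 5.45 and 7.25 in S3_C (log2 fold change 4.37, 95% interval 3.34 to 5.39, adjusted p = 0.0185). S3_S_1 was the highest margin library for both genes, at more than the other margin libraries by a wide gap, but the lowest margin library was still above every center library.

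The remaining subunit rows of photosystem II were those of PsbY and PsbW. PsbY, a small membrane subunit beside cytochrome b559, was at 125, 146 and 144 FPKM in S3_S and at 45.8, 38.5 and 65.5 in S3_C, and its log2 fold change was 1.48. PsbW, a small subunit that holds together the supercomplexes of photosystem II with its antenna, had a row of 3 reference genes, Bo4g056390, which was higher in the margin by 1.87 on the log2 scale (adjusted p = 0.0729, limma), but was at −0.15 with the library-size covariate. Its second row, Bo5g007740, was at 35, 20.3 and 3.69 FPKM in the margin and at 8.28, 5.69 and 5.32 in the center. These groups overlapped through S3_S_3, and the log2 fold change of 1.06 had a 95% interval of −0.75 to 2.88, so that it was not called.

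The assembly proteins of photosystem II did not pass the threshold. Psb27 binds to photosystem II while its manganese cluster is assembled, and its row Bo8g002740, which also spans Bo8g002520, was at 17, 19.2 and 18.6 FPKM in S3_S and at 16.1, 22.4 and 18.7 in S3_C. The 95% interval of its log2 fold change was −0.42 to 0.33, and over all 12 libraries it stayed between 12.7 and 22.4 FPKM. Psb28, known from cyanobacteria to bind an early assembly form of photosystem II, was at 2.32, 1.36 and 2.64 FPKM in S3_S and at 2.16, 7.06 and 0.559 in S3_C. Its center libraries spread on both sides of the margin libraries, and the interval of −1.66 to 1.35 leaves a change in either direction.

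In photosystem I, the stroma-side subunit PsaE takes part in the docking of ferredoxin. Its main gene, Bo8g054500, was at 548, 399 and 515 FPKM in S3_S and at 94.4, 93.5 and 94 in S3_C (log2 fold change 2.35, 95% interval 1.71 to 2.99, adjusted p = 0.0229). The center libraries of this gene agreed closely with each other, and its second copy, Bo1g017150, differed by 1.98 on the log2 scale. PsaF and PsaN lie on the lumen side, where plastocyanin delivers its electron. PsaF gene Bo5g065930 was at 18.9 to 22.3 FPKM in the margin and at 5.06 to 6.82 in the center, a log2 fold change of 1.68, while the copy Bo7g040990 was at most 0.0946 FPKM in any library.

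The PsaN gene Bo9g017950 was at 67.8, 37.5 and 42.5 FPKM in S3_S and at 0.40, 1.02 and 0.778 in S3_C (log2 fold change 4.83, 95% interval 4.16 to 5.49, adjusted p = 0.00811), or 5.92 on the log2 scale with a pseudocount of 0.1. It had the greatest difference in photosystem I. A row named PSAN that carried no KEGG pathway, and so is no member, was more abundant, with 464, 415 and 359 FPKM in the margin and 64.8, 60.2 and 60.3 in the center (log2 fold change 2.71, adjusted p = 0.014, limma).

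PsaO, PsaH and PsaL form the side of photosystem I to which the mobile part of the photosystem II antenna binds. PsaO gene Bo8g112500 was at 687, 739.9 and 783 FPKM in S3_S and at 123, 123 and 154 in S3_C (log2 fold change 2.46, 95% interval 1.68 to 3.25, adjusted p = 0.0267). It was the most abundant photosystem I member in the margin. PsaH gene Bo3g181110, named PSAH2, had the smallest difference among the called members, with 225, 165 and 156 FPKM in S3_S and 108, 77.4 and 67.7 in S3_C (log2 fold change 1.11, 95% interval 0.45 to 1.77, adjusted p = 0.0752). Its call was lost without S3_C_3 or without S3_S_1, where its log2 fold change was 0.96 and 0.95. The PsaL genes Bo8g034270 and Bo4g134490 were higher in the margin by 2.18 and 1.59. PsaK, on the antenna side, had a gene Bo5g062900 at 298, 172 and 188 FPKM in S3_S and at 49.8, 47.1 and 39 in S3_C (log2 fold change 2.21, 95% interval 1.57 to 2.86, adjusted p = 0.0238). Its other gene, Bo3g148990, differed by 2.68.

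The Rieske iron-sulfur protein PetC hands electrons from plastoquinone towards plastocyanin within cytochrome b6f. Its gene Bo9g006480 was at 714, 516 and 744 FPKM in S3_S and at 95.7, 69.6 and 99.8 in S3_C (log2 fold change 2.88, 95% interval 2.11 to 3.65, adjusted p = 0.0227). The ratio of the group means was 7.44, above that of the summed photosystem II or photosystem I members.

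Estimates of the carriers and FNR lay on both sides of 0, as did those of photosystem II. FNR gene Bo8g069950 was at 399, 171 and 241 FPKM in S3_S and at 67.3, 42.1 and 45.1 in S3_C (log2 fold change 2.31, 95% interval 1.4 to 3.22, adjusted p = 0.0372). The FNR row Bo9g022100, which also spans Bo9g022090 with a separate orthology number, was at 213, 198 and 238 and 75, 52.5 and 76.1 FPKM (log2 fold change 1.67, 95% interval 1.12 to 2.23, adjusted p = 0.0276). Both rows were higher in every margin library than in any center library.

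A further FNR gene, Bo9g076140, is named RFNR1, after the Arabidopsis root-type enzyme, which uses NADPH to supply reduced ferredoxin in non-green plastids. It was the member lower in each margin library than in each center library, with 5.06, 8.06 and 4.35 FPKM in S3_S and 12.4, 13.4 and 11.1 in S3_C, while 24.4% of all genes had their margin libraries all below their center libraries. Its log2 fold change was just short of the threshold (log2 fold change −0.999, 95% interval −1.56 to −0.44, adjusted p = 0.0697, unadjusted p = 0.00489). Without S3_C_3 or S3_S_2 it passed, at −1.06 and −1.22, and with the library-size covariate it was 0.64. The fourth FNR row, Bo5g063070, was at 2.33, 1.56 and 3.51 FPKM in the margin and at 1.56, 1.4 and 2.33 in the center, with an interval of −0.44 to 1.04.

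Cytochrome c6 (PetJ) replaces plastocyanin in many algae and cyanobacteria. The row Bo2g125670 has this name by its orthology number, and whether it has that role in kale was not tested. It was at 49.1, 38 and 46.6 FPKM in S3_S and at 39.4, 26.6 and 30.5 in S3_C. The groups overlapped, and the log2 fold change of 0.47 had an interval of 0.00 to 0.94. The plastocyanin row Bo7g061650, which spans a neighbouring reference gene and carries the name DRT112, was at most 1.63 FPKM, and the ferredoxin row Bo4g085190 was above 0 only in S1_1 at 3.82 and in S1_3 at 4.3 FPKM. The latter was not tested between the S3 groups, where it was listed at 0 in each library.

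**Figure D3:**
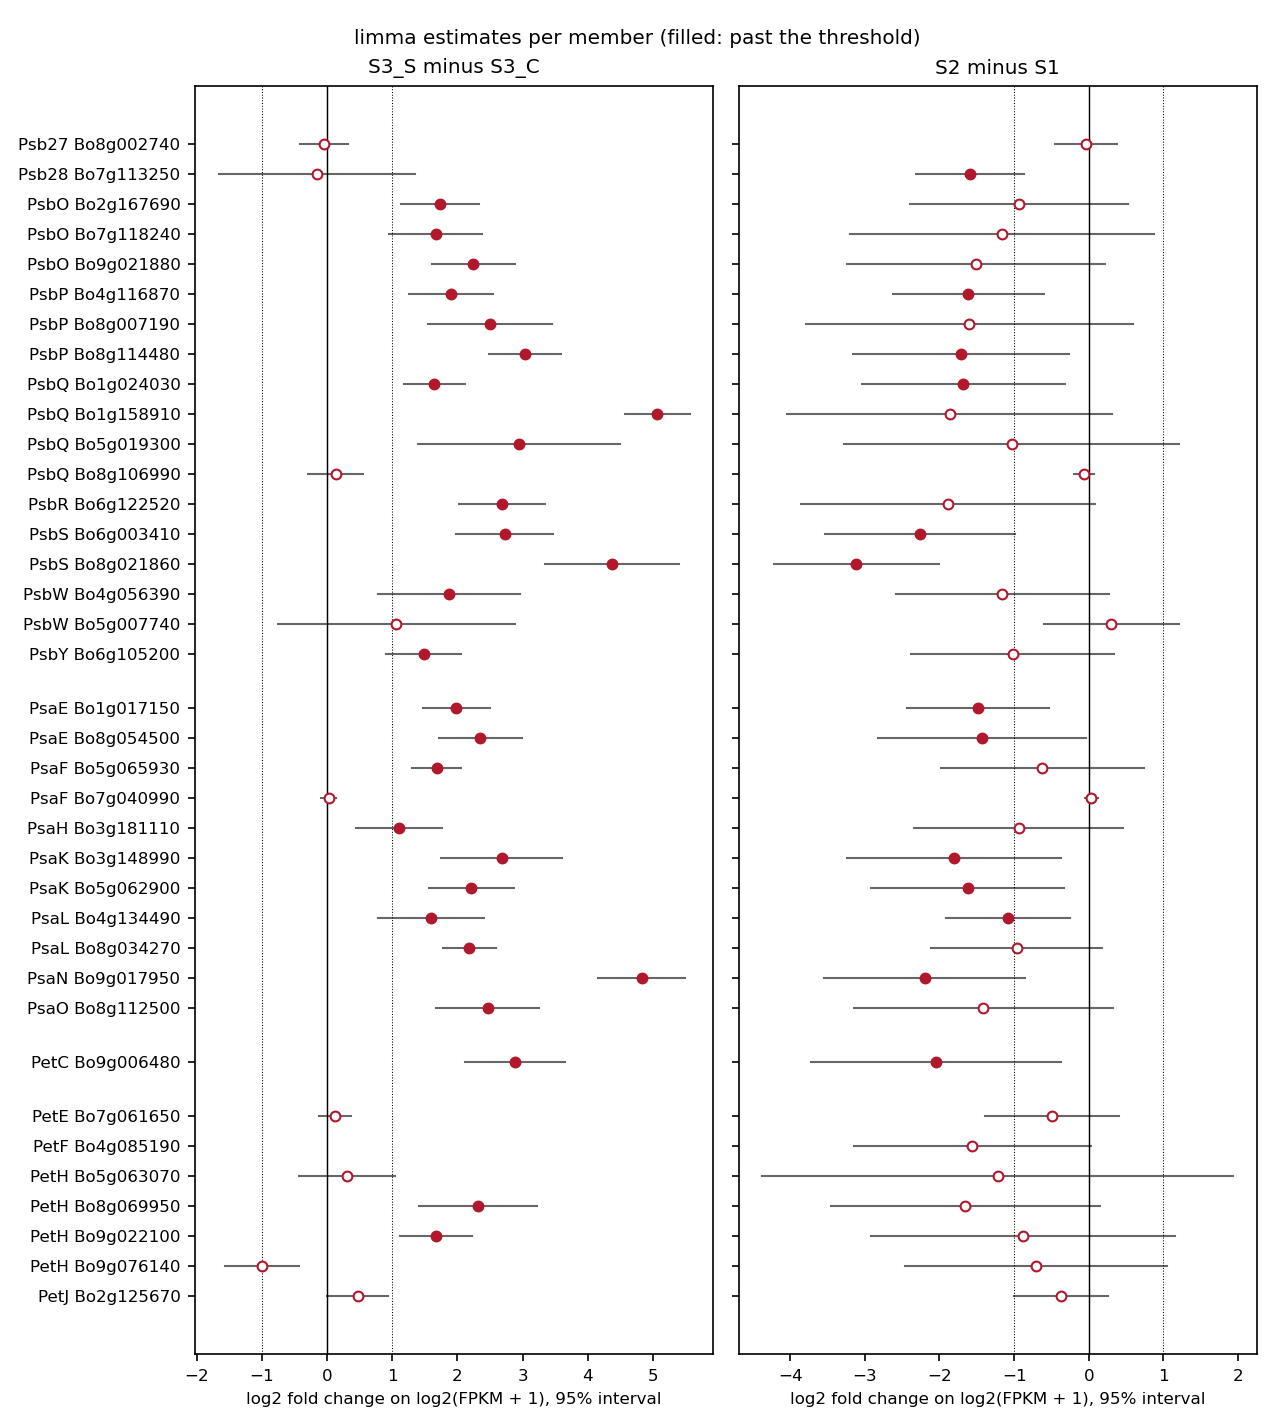
limma log2 fold change of each member on log2(FPKM + 1) with its 95% interval, for S3_S minus S3_C (left) and S2 minus S1 (right), with filled points past the threshold (unadjusted p under 0.05 and a log2 fold change over 1 in size, dotted lines). On the left 27 points are filled, all to the right of 0, and on the right 13 are filled, all to the left, with intervals that are wider.

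The comparison of S2 with S1 asks what differs between the green leaf stage and the stage that the study names albino. In S2, 13 of 37 members were lower than in S1 and 0 were higher, where 2.04% of all genes were lower and 7.02% higher. The median log2 fold change was −1.41 among the members and 0.21 among all genes tested. No member had an adjusted p under 0.05 (limma), as 0.00234% of all genes were higher and 0% lower by that measure, and 13 had an unadjusted p under 0.05, as did 20.7% of all genes. The fit of all 12 libraries gave 9 members with an adjusted p under 0.05, all lower in S2. In that fit, 757 of the 42771 genes tested were lower and 2886 higher by this measure. In 14 members all S2 libraries lay below all S1 libraries, as in 4.32% of all genes, and in 0 they lay above, as in 23.8%. The called members were 6 of photosystem II, 6 of photosystem I and the Rieske gene, and none of the carriers or FNR.

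The greatest decrease was in the PsbS gene Bo8g021860, with 616, 246 and 295 FPKM in S1 and 33.5, 36.6 and 52.2 in S2 (log2 fold change −3.12, 95% interval −4.22 to −2.01, adjusted p = 0.0863). The other PsbS gene, Bo6g003410, had 733, 305 and 343 FPKM in S1 and 71.5, 80.3 and 119 in S2 (log2 fold change −2.26, 95% interval −3.53 to −0.99, adjusted p = 0.118). For both genes the highest S2 library was well below the lowest S1 library. The Rieske gene Bo9g006480 went from 925, 289 and 403 to 105, 69.4 and 203 FPKM (log2 fold change −2.05), and S2_3 came closest to S1. The call was lost without S2_1, without S2_2 or after quantile normalization, where the log2 fold change was −1.99, −1.69 and −1.61.

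PsaN gene Bo9g017950 fell by 2.2 on the log2 scale, from 64.5, 28 and 34.6 FPKM in S1 to 6.76, 3.93 and 17.2 in S2. Psb28 gene Bo7g113250, which was not called between the S3 sectors, was at 7.21, 6.62 and 6.76 FPKM in S1 and at 1.66, 0.917 and 2.51 in S2 (log2 fold change −1.59, 95% interval −2.31 to −0.87, adjusted p = 0.105). Its S1 libraries agreed within 1 FPKM, in contrast to most other members, whose S1_1 value was far above the rest.

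Several abundant members were not called here, and in these S1_1 and S2_3 lay far above the rest of their groups. PsbP gene Bo8g007190 was at 828, 227 and 253 FPKM in S1 and at 94.1, 51.9 and 343 in S2, so that S2_3 exceeded the lower S1 libraries, and PsaO gene Bo8g112500 showed the same overlap with 562, 257 and 257 and 95.7, 68.4 and 296 FPKM. The number of members lower in S2 was 21 without S2_3 and 8 without S1_1. It was 6 without S2_1 and 7 without S2_2, and 22 with median-of-ratios scaling, against 4.27% of all genes. Of all genes, 920 were lower without S2_3, 1110 without S1_1, 694 without S2_1 and 909 without S2_2, beside 873 with every library kept.

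Each S3 sector was also set against S1, which serves as the reference in both of the following comparisons and differs from them in stage and in the sampled part of the leaf. As in S2 against S1, stage cannot be told apart from temperature. In the white center, 21 of 37 members were lower than in S1 and 0 were higher, where 4.31% of all genes were lower and 17.5% higher. With an adjusted p under 0.05, 14 were lower (limma), against 4.01% of all genes, and 0 were higher, against 24.2%. The number of lower members was 9 without S1_3 and 9 without S3_C_1, and 10 in a fit blocked by replicate number. Of all genes, 850, 857 and 640 were lower by that measure in these fits, against 1725 in the fit above. In 22 members all center libraries lay below all S1 libraries, as in 7.94% of all genes. PsbS gene Bo8g021860 had the greatest difference (log2 fold change −5.46, 95% interval −6.41 to −4.5, adjusted p = 0.0045), and the second PsbS gene, Bo6g003410, followed the PsaN gene Bo9g017950 and the PsbQ gene Bo1g158910, with log2 fold changes of −3.37, −4.57 and −3.72. Psb27 row Bo8g002740 was higher in every center library than in any S1 library, with 16.1 to 22.4 against 14.3 to 15.5 FPKM, but was not called (log2 fold change 0.31). Of all genes, 37.2% had their center libraries all above S1.

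In the green margin, 2 of 37 members were higher than in S1 and 2 were lower, where 12.5% and 6.72% of all genes were. The median log2 fold change of 0.45 stood beside 0.06 for all genes tested. With an adjusted p under 0.05, 0 were higher and 2 lower (limma), against 10.4% and 4.47% of all genes. In 6 members the margin libraries all lay above S1 and in 2 all below, as in 25.9% and 13.2% of all genes. The higher members were the PsbO gene Bo2g167690, at 202, 235 and 246 FPKM in S3_S and 163, 65.8 and 71.2 in S1 (log2 fold change 1.3, 95% interval 0.26 to 2.34, adjusted p = 0.0879), and the PsbW row Bo4g056390 (log2 fold change 1.02, adjusted p = 0.128, limma). Both lost their call with median-of-ratios scaling, at 0.97 and 0.70. The lower members were RFNR1 gene Bo9g076140, with 25.5, 16.9 and 63.8 FPKM in S1 and 5.06, 8.06 and 4.35 in S3_S (log2 fold change −2.24, 95% interval −3.44 to −1.03, adjusted p = 0.0376), and Psb28 gene Bo7g113250, with 6.62 to 7.21 against 1.36 to 2.64 FPKM (log2 fold change −1.36, 95% interval −1.94 to −0.78, adjusted p = 0.0256). The higher side depended on S1_1 and on scaling: 11 members were higher and 2 lower without S1_1, and 0 were higher and 2 lower with median-of-ratios scaling. Of all genes, 5856 of 41647 were higher and 3699 lower without S1_1, and 8.5% and 9.29% with that scaling. Without S1_3 or without S3_S_2, 0 members were higher and 2 lower. With an adjusted p under 0.05 (limma), 9 members were higher and 2 lower without S1_1 and 1 was lower without S3_S_1. There were 0 members in either direction without any other single library or in the blocked fit. By this measure, 5000 of all genes were higher and 4129 lower without S1_1, and 6200 and 2105 without S3_S_1. In each of the other fits named, at most 2 genes passed.

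Shares within a library do not depend on the scaling between libraries, and several of them separated the groups. They were chosen after the values were seen. Gene Bo8g021860 made up 45.7, 44.6 and 46.2% of the PsbS total in the S1 libraries and 42.8, 36.3 and 35% in S3_S. It made up 31.9, 31.3 and 30.5% in S2 and 18.4, 11.4 and 15.9% in S3_C. No pair of groups overlapped, and the share was lowest in the white center (exact permutation p = 0.1 for S2 and each S3 sector against S1 and for the margin against the center).

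PsbS as a whole took 32.1, 36.5 and 35.7% of the summed photosystem II members in S1, a sum that leaves out PSBQ and PSBO2. This share was 21.1, 27.4 and 13% in S2, 22.2, 12.4 and 10.9% in S3_S and 8.57, 10.1 and 6.55% in S3_C. S1 was thus above every other library, the green margin included (exact permutation p = 0.1), while S2 and S3_S overlapped. With PsbS left out, the ratio of the photosystem II sum to the photosystem I sum overlapped between all groups, with means of 1.22 ± 0.218 (SD, n = 3) in S1 and 1.32 ± 0.138 (SD, n = 3) in S3_S.

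Among the 3 PsbO members, gene Bo2g167690 took 21.5, 24.4 and 23.5% of their sum in S1, 28.8, 33.2 and 34.7% in S3_S and 37, 40.4 and 42.9% in S3_C, without overlap. With PSBO2 added to the sum, the share was 15.2, 15.2 and 15.4% in S1, 17.5, 21.1 and 19.7% in S3_S and 19.4, 20.1 and 23.6% in S3_C. Margin and center then overlapped (exact permutation p = 0.5), and both stayed above S1 (exact permutation p = 0.1 for each). Among the 4 PsbQ members, Bo1g158910 took 28.3, 30.6 and 39.6% of their sum in S3_S and 0.144, 0.656 and 0.695% in S3_C, and 6.43 to 22.9% in S1 and S2. PSBQ, the most abundant PsbQ row, is no member, and with it in the sum the share was 2.51, 1.76 and 1.47% in S3_S and 0.00756, 0.0285 and 0.0378% in S3_C, still without overlap (exact permutation p = 0.1). The S1 libraries, at 2.13, 0.925 and 1.08%, then overlapped the margin (exact permutation p = 0.3).

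RFNR1 gene Bo9g076140 and the FNR row Bo5g063070 differed from most members in which S1 and S2 libraries were high. Bo9g076140 was at 25.5, 16.9 and 63.8 FPKM in S1 and at 15.9, 44.4 and 8.27 in S2, and Bo5g063070 was at 38.9, 2.04 and 42 and at 2.62, 27.3 and 3.05. Both were highest in S1_3 within S1 and in S2_2 within S2, as was the PsaL gene Bo4g134490, with 40.8, 33.4 and 54.3 and 13, 29.3 and 18.8 FPKM, whereas S2_2 was the lowest S2 library for 23 of the 33 members averaging 1 FPKM or more. The FNR rows Bo9g076140 and Bo5g063070 together took 1.19, 2.54 and 1.61% of the FNR sum in S3_S and 8.94, 13.5 and 10.0% in S3_C, without overlap (exact permutation p = 0.1), and 50.7% in S2_2. With the FNR row Bo2g167610, which is no member, in the sum, the shares were 1.05, 2.07 and 1.28% in S3_S and 7.42, 11.2 and 7.89% in S3_C.

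**Figure D4:**
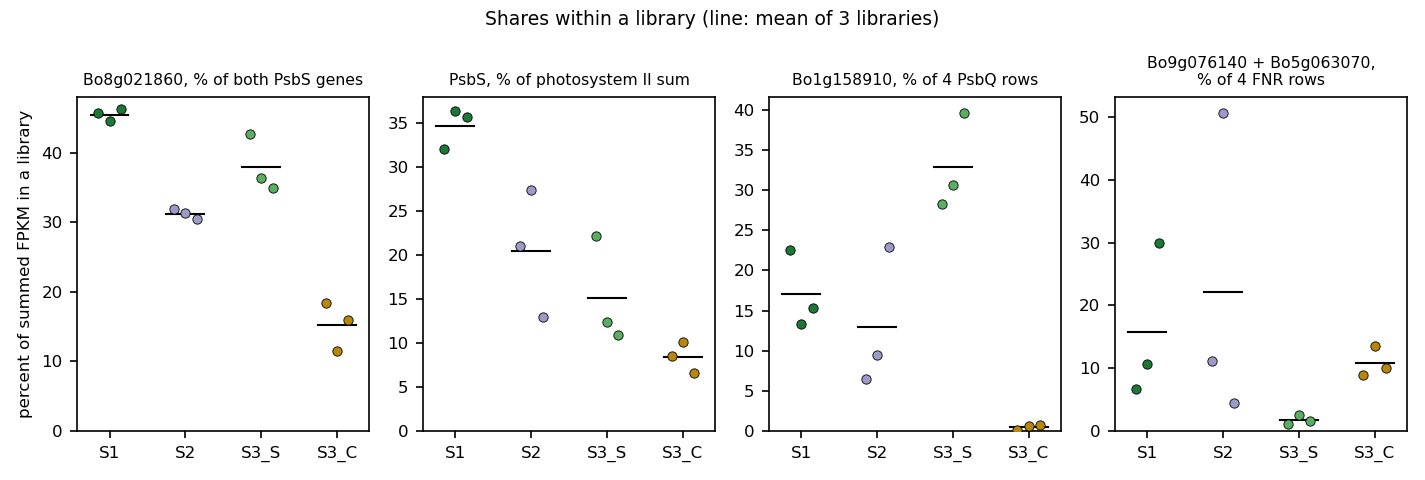
Shares of summed FPKM within each library (1 point per library, the line is the mean of 3): Bo8g021860 among the PsbS genes, PsbS among photosystem II members, Bo1g158910 among the 4 PsbQ members, and Bo9g076140 and Bo5g063070 among the 4 FNR members. The 4 groups separate in the first panel, and the center points of the PsbQ panel lie at 0.144 to 0.695%.

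Genes outside the KEGG list that serve the same complexes were described by lists. The first holds 64 rows with a GO term that names photosystem I, photosystem II, their assembly or repair, or the cytochrome b6f complex, or that names ATP synthase beside a chloroplast annotation. Of 62 tested, 24 were higher in the margin and 2 lower, where 2.67% and 5.2% of all genes were. Their median log2 fold change was 0.95, below the 1.89 of the members. PSBQ, a further PsbQ gene, was at 1456, 1505 and 2661 FPKM in S3_S and at 423, 393 and 362 in S3_C (log2 fold change 2.2, adjusted p = 0.134, limma). NDF2 and NDF4, subunits of the chloroplast NDH complex, which returns electrons from the photosystem I side, were higher by 2.3 and 2.41. The lower rows were Bo3g081840, at 8.31 to 26.5 against 34.3 to 50 FPKM, and TAAC, a thylakoid ATP/ADP carrier, at 0.426 to 1.11 against 1.73 to 3.37 FPKM, both without an adjusted p under 0.05 (limma). In S2, 20 of 63 tested rows of this list were lower than in S1 and 0 were higher, where 2.04% and 7.02% of all genes were.

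The chloroplast ATP synthase, absent from the members, was represented by the row Bo1g010630, which spans a neighbouring reference gene and whose description names a subunit of the membrane-embedded part. It was at 132, 105 and 14.4 FPKM in S3_S and at 53.6, 16.6 and 19.3 in S3_C, and these overlapped. For the row Bo4g173790, which matches CGL160, an assembly factor of this ATP synthase, expression was 99.6, 85.5 and 74.7 FPKM in S3_S and 43.5, 38.1 and 46.4 in S3_C, so that the groups did not overlap, but the log2 fold change of 0.999 did not pass 1. The mitochondrial ATP synthase, which makes ATP in respiration, had 20 rows, of which 0 were called higher or lower, where 2.67% and 5.2% of all genes were. Its median log2 fold change was −0.52, its 20 rows had 9 with an unadjusted p under 0.05 (limma), which 25.3% of all genes had, and its summed level was 458, 411 and 401 FPKM in S3_S and 648, 651 and 512 in S3_C.

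Assembly and regulation factors of the photosystems were listed by 33 Arabidopsis symbols, of which 23 were found in the table. Without PSB28, which is a member, 23 rows matched. Of these, 9 were higher in the margin and 0 lower, where 2.67% and 5.2% of all genes were, and their median log2 fold change was 0.84. TLP18.3 and HCF136, which act in the repair and the assembly of photosystem II, were higher by 2.08 and 1.49. ALB3, which inserts antenna proteins into the thylakoid, was at 247, 277 and 273 FPKM in S3_S and at 98.5, 72 and 110.4 in S3_C (log2 fold change 1.52, adjusted p = 0.0378, limma). The kinase STN7 and the phosphatase TAP38, which set the phosphorylation of the mobile antenna, were higher by 1.14 and 1.78, with adjusted p = 0.162 and 0.0848 (limma). IM, the plastid terminal oxidase, whose loss gives white leaf sectors in Arabidopsis, was at 24.2, 36.6 and 32.3 FPKM in S3_S and at 18.4, 13.9 and 25 in S3_C and was not called (log2 fold change 0.69).

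The 17 genes of the antenna proteins, which collect light for both photosystems, had a median log2 fold change of 2.23 between margin and center. By the threshold, 15 antenna genes were higher and 0 lower, where 2.67% and 5.2% of all genes were. The summed level of the antenna genes was 11052, 9769.9 and 11080.1 FPKM in S3_S and 8215, 3674 and 4072 in S1, so that the margin was above S1 in each library (ratio 2.00, exact permutation p = 0.1), whereas the members' sums overlapped.

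Markers of other leaf cell types were looked up as well, and some of them differed between the S3 sectors. The xylem and secondary wall list had 8 symbols, of which 4 were found (XCP1, CESA8, CESA4 and IRX9). By the threshold, which 5.2% of all genes passed as lower in the margin, 3 of these genes were lower. Their sum was 3.81, 2.26 and 2.22 FPKM in S3_S and 15.5, 14.4 and 10.5 in S3_C, without overlap, and 13.1, 11.1 and 7.56 in S1 and 11.1, 7.51 and 12.8 in S2, which overlapped. The other lists rest on 1 matched gene each, of 5 epidermis, 3 guard cell and 4 phloem symbols. The epidermal wax gene CER1 was lower in the margin by threshold (log2 fold change −1.03, adjusted p = 0.0819, limma), where the median of all genes averaging 1 FPKM or more was −0.32. The guard cell channel KAT1 was not called (−0.10). The phloem gene SEOR1 was also not called (−0.78). The part of cell type makeup in the margin-center differences was not tested.

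Whether the margin-center difference at S3 was of the same size as the S1-S2 difference was tested as a contrast of contrasts over the 12 libraries. It passed the threshold in 4 of 37 members, 3 with a greater difference at S3 and 1 with a smaller one, where 3.99% and 2.43% of all genes did. None of the members had an adjusted p under 0.05 (limma), where 0.0154% of all genes had a greater and 0.0132% a smaller difference by that measure, and 4 had an unadjusted p under 0.05, as did 11.4% of all genes. PsbQ gene Bo1g158910 and PsaN gene Bo9g017950 showed the greater differences at S3, as both were near 0 in the center but still measured in S2, at 1.27, 1.15 and 11.8 and 6.76, 3.93 and 17.2 FPKM, respectively. The number of members past the threshold was 7 without S1_1 and 2 without any of S1_3, S3_C_1, S3_S_1 or S3_S_2.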

How the data were processed

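Poly(A) RNA of 12 kale leaf libraries was sequenced from both ends on an Illumina HiSeq. The authors removed low-quality reads, used HISAT for alignment to the Ensembl Plants genome of this species, assembled transcripts with StringTie, merged them and calculated the deposited FPKM per gene. How the transcripts of a gene were combined is not given in the sources used here. Read counts and gene coordinates were not used here.

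From the FPKM, limma 3.58.1 (R 4.3.3; lmFit and eBayes with a trend) was run on log2(FPKM + 1) over the genes above 0 in at least 1 library fitted, without a block. The call was the study's threshold, p under 0.05 and a log2 fold change over 1 in size, with Benjamini-Hochberg adjustment beside it. Sums and shares used exact two-sided permutation tests. Summaries and plots used Python 3.11.15, pandas 2.3.3, numpy 2.4.6 and matplotlib 3.10.9. The test was tested on simulated data. Alternatives were the replicate block, a pseudocount of 0.1, quantile normalization, median-of-ratios scaling, a minimum mean of 1 FPKM, a fit of the 12 libraries together, each library left out, and linear models per gene with and without the library-size covariate. Median-of-ratios scaling moved the median log2 difference of S3_S against S3_C from −0.32 to 0.00 among genes averaging 1 FPKM or more, and the share of all genes tested that were called higher from 2.67% to 4.23%.

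Named were, in each role, the 3 most abundant members, the largest and smallest margin-center difference and every member lower in the margin; the rest are accounted for by symbol. Members, lists and tests were chosen with earlier results of these data known.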

Additional observations from a re-analysis of the deposited data

Results flagged for a closer look

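In 4 of 37 members the difference between the margin-center contrast at S3 and the S1-S2 contrast passed the threshold (limma, 12 libraries, unadjusted p under 0.05 and a log2 difference over 1 in size). Of all genes, 3.99% passed with a greater and 2.43% with a smaller difference at S3. An unadjusted p under 0.05 was found in 4 of the 37 members and in 11.4% of all genes, so that the members did not stand out by this measure. The contrasts also differ in the tissue sampled, as an S2 library mixed green and whitening tissue and S3_C was the white center. The difference between the contrasts was 3.21 for PsbQ gene Bo1g158910 (adjusted p = 0.273) and 2.63 for PsaN gene Bo9g017950 (adjusted p = 0.194). It was 1.21 for PsaL gene Bo8g034270 (adjusted p = 0.427) and −1.75 for Psb28 gene Bo7g113250 (adjusted p = 0.401), which was lower in S2 than in S1 but spread over both sides between the S3 sectors. No member passed after adjustment over all genes.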

How the results depend on the processing

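The number of members higher in S3_S than in S3_C was 26 to 28 under each alternative but one: a linear model per gene with the library-size covariate left 6, of 27. For S2 against S1, 13 members became 20 with all 12 libraries in the fit and 22 with median-of-ratios scaling, and 6 to 21 with a library left out. For S3_S against S1, 4 became 7 with all 12 libraries, 9 among genes averaging 1 FPKM or more, 2 with median-of-ratios scaling and 8 with a pseudocount of 0.1, and 2 to 13 with a library left out. For the contrast of contrasts, 4 became 2 to 7 with a library left out. The number for S3_C against S1 was 16 to 29.

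With the replicate number as a block, 27 members were called between the S3 sectors (14 with an adjusted p under 0.05), 12 for S2 against S1 (0 adjusted), 8 for S3_S against S1 (0 adjusted) and 20 for S3_C against S1 (10 adjusted). Libraries of the same number correlated by 0.0968 to 0.421 in S3_S and S3_C, and those of different numbers by −0.433 to 0.21. In S1 and S2 these ranges were −0.355 to 0.182 and −0.374 to 0.439. The lowest same-number value of the S3 sectors was just short of the criterion of 0.1. The numbers were thus not taken to pair the libraries, but whether the S3 sectors are paired is not settled by these values.

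Of the margin-center estimates, 8 changed sign with the library-size covariate, 2 with each scaling and up to 3 with a library left out, and the cause was not tested. The covariate gave −1.45 for Bo5g063070, 0.64 for Bo9g076140, 0.065 for Bo8g002740, −0.51 for Bo5g019300 and −0.15 for Bo4g056390, and the other 3 were Bo7g040990 (−0.080), Bo7g061650 (−0.23) and Bo8g106990 (−0.25). Without S3_S_1, Bo7g040990 and Bo8g106990 were at −0.0073 and −0.040. Median-of-ratios scaling gave 0.32 and quantile normalization 0.17 for Bo8g002740, and 0.10 and 0.13 for Bo7g113250. Leaving out a library gave −0.15 to 0.069 for Bo8g002740 and −0.72 to 0.46 for Bo7g113250. FPKM keep no read counts, so that counting error at low values is unknown.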
